A study of Danio rerio with 23 samples.

Results

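The effect of age on the wild-type zebrafish ovary was described from 11 of the 23 RNA-seq libraries of a study on loss of the glucocorticoid receptor. The 11 were chosen by their titles. They comprise 5 libraries of wild-type (WT) females of 3 months and 6 of WT females of 6 months, all from dissected ovaries, with no treatment and no strain named in the labels. The other 12 libraries come from females carrying nr3c1 -/-, a loss of the receptor gene in the whole body (GRKO, 6 libraries of each age). Their values appear here only beside the WT values. They were also part of the fit, and entered the filter, the scaling and the estimate of spread behind the WT tests. GRKO library 4 of 3 months has WT in its genotype field and was placed by its title. The study asks what part the receptor plays in early ageing of the ovary, and the WT ages are its measure of ordinary ageing over this interval. Whether the libraries of a group are separate fish is not stated in the labels. The p-values therefore refer to variation among libraries, which may include a technical part.

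The zebrafish ovary spawns repeatedly and holds follicles of every stage side by side, each an oocyte wrapped in somatic follicle cells, with stroma, vessels and immune cells between them. Growing oocytes store large amounts of maternal RNA, which makes up much of the RNA of a whole ovary. In such bulk samples, fewer cells of a type and less RNA per cell cannot be told apart. The deposited values are estimated counts per Ensembl transcript. The files do not pair these transcripts with genes, and 0 of the 57775 identifiers matched the gene tables used here. Transcripts are therefore given by identifier, at most 2 in each direction, and markers of ovarian cell types were not analysed here.

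WT libraries summed to 29489146 to 39785753 estimated counts and overlapped in breadth between the ages. Transcripts with a rounded count of 1 or more numbered 36541, 36219, 38308, 37188 and 37183 in libraries 2, 6, 10, 12 and 13 of 3 months. They numbered 37088, 38736, 39307, 37013, 37171 and 36292 in libraries 1, 2, 6, 7, 8 and 9 of 6 months, so that the ages overlapped (exact two-sided permutation test, p = 0.411). The 100 most abundant transcripts of a library held 18.3% to 25.6% of its counts at 3 months and 22.5% to 26.1% at 6 months (exact permutation test, p = 0.42). The lowest shares were those of libraries 2 and 6 of 3 months, at 18.3% and 20.0%. The most abundant transcript over the WT libraries, ENSDART00000099360.5, singled out for its level alone, held 0.591% to 0.81% of the counts at 3 months and 0.794% to 1.05% at 6 months. Its log2 fold change of 0.18 (SE 0.13) did not pass the test across all transcripts (edgeR, adjusted p = 0.683).

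Few single transcripts passed the adjusted threshold for a difference between the ages. Of 30849 transcripts tested, 3 passed (0.00972%), with a Benjamini-Hochberg adjusted p under 0.05 in edgeR's quasi-likelihood test. Of these, 2 were higher (0.00648%) and 1 was lower (0.00324%) at 6 months. Of the 3, 1 went from undetected to moderate, 1 from near 0 to low, and 1 well-detected transcript fell by less than 2-fold. The count depended on the libraries and the tool. It was 0 with the library number as a block (2270 transcripts at an unadjusted p under 0.05) and 1 with the WT libraries alone. It was 26 without library 10 of 3 months, 5 without library 1 and 7 without library 8 of 6 months, and 58 without libraries 2 and 6 of 3 months together. The number used as a block comes from the library title. The WT ages share only numbers 2 and 6, which are not known to be pairs. A term for each number also leaves less of the data to estimate the spread. With DESeq2 the count was 409 (1.33% of the 30849, of which 4268 received no adjusted p there). Of the 409, 155 were higher and 254 lower. At an unadjusted p under 0.05 the directions were alike, with 61.1% lower in DESeq2 and 63.4% lower in edgeR.

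ENSDART00000172366.2 was present at 6 months only. Its rounded count was 0 in all 5 libraries of 3 months. At 6 months, libraries 1, 2, 6, 7, 8 and 9 held counts of 232, 138, 208, 193, 261 and 174. As CPM, the counts scaled to a common library size, these were 7.99, 3.97, 5.47, 5.26, 7.40 and 5.07, with a mean of 5.86 ± 1.52 (SD, n = 6). Every older library lay far above the younger ones. Set against 3 counts over the whole 3 months group, the level was at least 350-fold higher at 6 months (edgeR, adjusted p = 0.00315). The call was kept in 21 of 22 alternative settings and lost with the library number as a block. The transcript was at a rounded count of 0 in every one of the 12 GRKO libraries. None of the 6 estimates was a whole number, so part of the reads was shared with other transcripts.

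ENSDART00000081946.5 was close to undetected at 3 months and low at 6 months. Libraries 2, 6 and 12 of 3 months held 3 counts each, and libraries 10 and 13 held 0. At 6 months, libraries 1, 2, 6, 7, 8 and 9 held 30, 90, 46, 49, 16 and 49 counts, or 1.03, 2.59, 1.21, 1.34, 0.454 and 1.43 CPM. None of the estimates in the 9 WT libraries with a count was a whole number, so reads were shared here too. The ages did not overlap, and the highest and lowest older libraries, 2 and 8, differed more than in the transcript above. The mean rose from 0.0499 ± 0.0461 (SD, n = 5) to 1.34 ± 0.702 CPM (SD, n = 6), by 4.65 on the log2 scale (95% interval 3.36 to 5.93; edgeR, adjusted p = 0.00315). The call was lost with the WT libraries alone (adjusted p = 0.573), with limma (adjusted p = 0.0676) and with the library number as a block. In GRKO the transcript was already present at 3 months, at 0.761 to 2.11 CPM with a median of 1.11, and ranged from 1.67 to 2.55 CPM with a median of 1.78 at 6 months. All 5 young WT libraries, at 0.09 CPM or less, lay below every library of the other 3 groups. The age effect in GRKO was 0.58 (SE 0.47, adjusted p = 0.754), and its difference from that in WT did not pass (interaction of -4.06 on the log2 scale, SE 0.75, adjusted p = 0.16).

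ENSDART00000053761.7 lay between 10 and 100 CPM in every WT library and had a small and even decline. In libraries 2, 6, 10, 12 and 13 of 3 months it stood at 99.8, 83.3, 73.4, 89.8 and 79.7 CPM. In libraries 1, 2, 6, 7, 8 and 9 of 6 months it stood at 47.1, 48.2, 55.0, 57.3, 50.2 and 55.5 CPM. The lowest young library lay above the highest older one. It fell by 0.71 on the log2 scale (SE 0.12, edgeR, adjusted p = 0.0479), and the level at 3 months was 1.63-fold that at 6 months. The size was stable, at -0.76 to -0.62 over 22 alternative settings, but the adjusted p ranged from 3.5e-06 to 0.675 and the call was lost in 17 of them, among them every one that left out a single library except library 10 of 3 months. In GRKO it stood at 47.2 to 65.7 CPM at 3 months and 51.9 to 81.8 CPM at 6 months, and the interaction of 0.87 (SE 0.16) had an adjusted p of 0.16. The WT estimates of this transcript were whole numbers in only 2 of 11 libraries.

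ENSDART00000125309.3 had the smallest p among the other transcripts of 1 CPM or more that were lower in every older library. At 3 months libraries 2, 6, 10, 12 and 13 held 195, 201, 125, 141 and 135 CPM. At 6 months libraries 1, 2, 6, 7, 8 and 9 held 117, 102, 104, 104, 110 and 110 CPM. The older libraries were tight, with a coefficient of variation of 5.2%, against 22.5% in the younger ones, where libraries 2 and 6 stood above the other 3. The log2 fold change of -0.56 (95% interval -0.78 to -0.35) did not pass (edgeR, adjusted p = 0.114). Without libraries 2 and 6 of 3 months it was -0.31 (adjusted p = 0.0777), and without library 10 of 3 months it was -0.62 (adjusted p = 0.0129). DESeq2 called it (adjusted p = 5.94e-05). The WT estimates of this transcript were whole numbers in only 1 of 11 libraries.

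**Figure D1:**
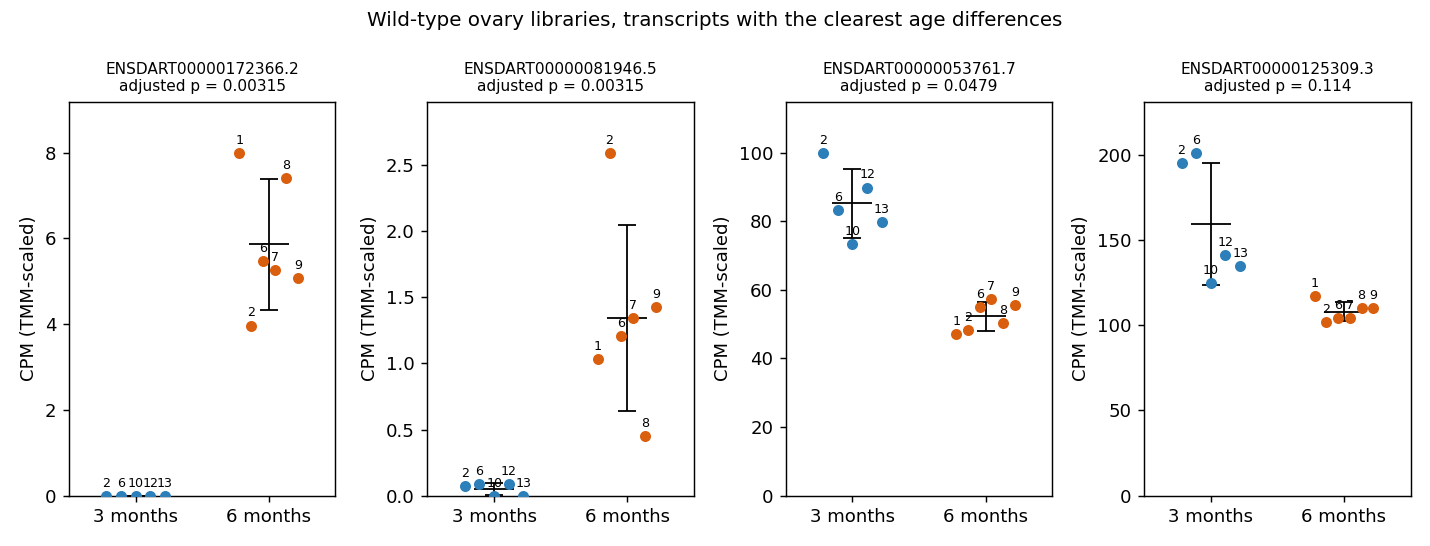
CPM of the 4 transcripts described singly in each WT library, with the library number above each point and bars for the mean and SD (n = 5 at 3 months, n = 6 at 6 months). In each panel the 2 ages do not overlap, and the adjusted p of the edgeR test runs from 0.00315 to 0.114.

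Presence at 1 age was mostly a matter of single libraries. There were 3577 transcripts with a rounded count of 0 in all libraries of 3 months and a count at 6 months, and 2216 of these were seen in 1 library only. In the other direction there were 2623, with 1824 in 1 library. Present in every library of 1 age and at 0 in every library of the other were 4 transcripts for each age. Apart from ENSDART00000172366.2, the 3 seen only at 6 months had at most 31 counts in a library, and all 3 also had counts in GRKO. Of the 4 seen only at 3 months, none passed the expression filter, and 1 of them was at 0 in GRKO as well.

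At an unadjusted p under 0.05, 3477 transcripts differed between the ages (11.3% of those tested), 1271 higher and 2206 lower at 6 months. This balance rested on libraries 2 and 6 of 3 months. It was 1383 higher and 1339 lower without library 2, 1292 and 1330 without library 6, and 2245 and 2033 without both, where it turned. With the library number as a block it was 1146 and 1124. With all libraries in, the direction changed with abundance. Among transcripts under 1 CPM on average over the WT libraries, 42.8% of those at this level were lower at 6 months, against 53.4% at 1 to 10 CPM, 74.3% at 10 to 100 CPM and 91.9% at 100 CPM or more. With upper-quartile factors in place of TMM the overall share that was lower went from 63.4% to 50%, and among transcripts of 100 CPM or more it was 80.3%. In that most abundant class it was 80.3% to 96.1% over the 23 alternative settings. These are unadjusted values, and no transcript of 100 CPM or more passed the adjusted threshold.

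The shifts of abundant transcripts were small. The 1847 transcripts of 100 CPM or more held 62.2% ± 2.5 of the counts at 3 months (SD, n = 5) and 62.4% ± 1.1 at 6 months (n = 6), so the summed shares of the class overlapped between the ages. Their median log2 fold change was -0.09, and 1820 had a fold change under 2-fold. The shares are of unscaled counts, whereas the fold changes follow TMM scaling. The TMM factors were 0.939 to 1.05 at 3 months and 0.986 to 1.09 at 6 months. With upper-quartile factors the median was -0.042, so its size depended on the scaling. The 354 that were lower at an unadjusted p under 0.05 had a median of -0.35, and 347 of them were under 2-fold. Their number was 212 without library 2 and 189 without library 6 of 3 months, 232 without library 6 of 6 months, 232 with upper-quartile factors and 425 without libraries 2 and 6 of 3 months together. Chosen by this contrast, they held 10.4% ± 2.4 of the counts at 3 months (range 8.46% to 13.2%) and 8.16% ± 0.39 at 6 months (range 7.57% to 8.71%), which describes the size of the shift and does not test it. The 31 that were higher held 0.714% ± 0.088 and 1.05% ± 0.13.

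**Figure D2:**
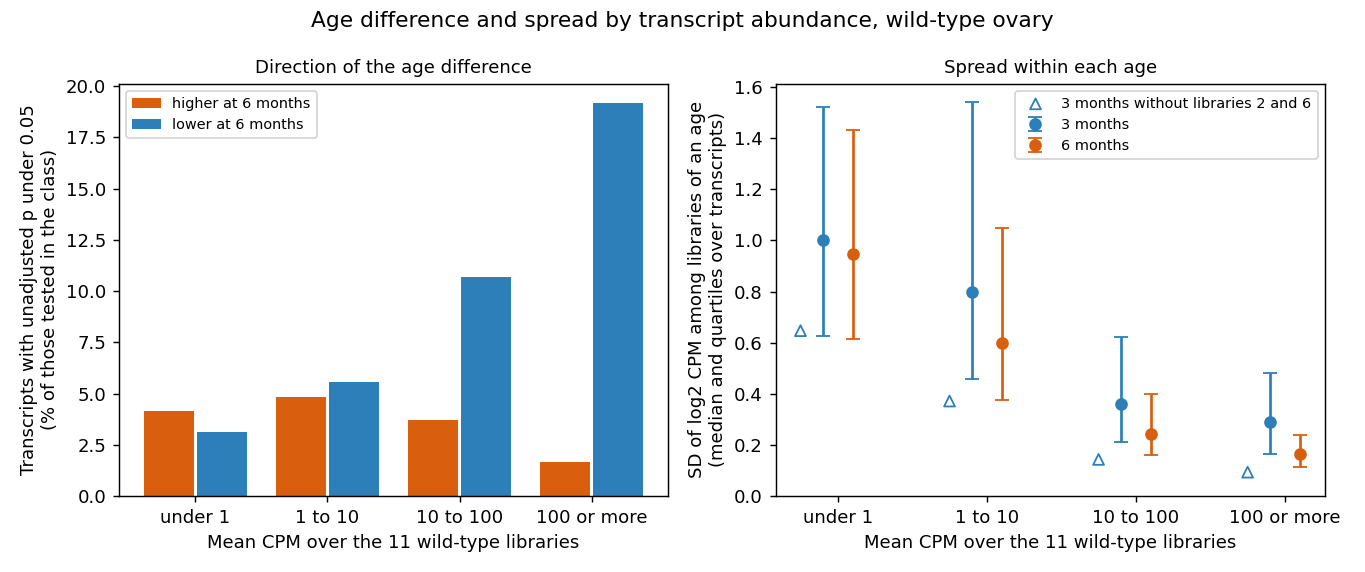
Left, percent of tested transcripts with an unadjusted p under 0.05 in 4 classes of mean CPM, by direction. Right, SD of log2 CPM among the libraries of each age (median and quartiles over transcripts, with open triangles for 3 months without libraries 2 and 6). The share lower at 6 months rises with abundance to 354 of the 385 in the class of 100 CPM or more, and the median SD is higher at 3 months in every class until libraries 2 and 6 are left out.

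The most even age differences were those in which no library of one age overlapped any of the other. There were 286 such transcripts (0.927% of those tested), 120 higher (0.389%) and 166 lower (0.538%) at 6 months. Their share rose with abundance, from 0.516% under 1 CPM to 0.706%, 1.11% and 3.36% in the classes above. In the class of 100 CPM or more, 56 were lower and 6 higher. The higher ones had a median log2 fold change of 0.787 at a median level of 5.01 CPM, and the lower ones a median of -0.443 at 50.2 CPM. Most were small, since 71 of the 120 and 134 of the 166 changed by less than 2-fold, and only 3 of the 286 passed the adjusted threshold. The balance of direction turned with scaling, as upper-quartile factors gave 176 higher and 104 lower. With interchangeable libraries and no age effect, a fraction of at most 0.00433 would be without overlap on average. The fraction under 1 CPM was close to this.

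The 56 abundant transcripts that were lower in every older library show how fine these differences are. Together they held 2.30%, 2.30%, 2.01%, 2.00% and 1.98% of the counts in libraries 2, 6, 10, 12 and 13 of 3 months, and 1.68%, 1.82%, 1.68%, 1.76%, 1.84% and 1.77% in libraries 1, 2, 6, 7, 8 and 9 of 6 months. All 56 changed by less than 2-fold, with log2 fold changes of -0.73 to -0.06. Libraries 2 and 6 of 3 months were the highest. The separation is a result of the choice and carries no test.

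**Figure D3:**
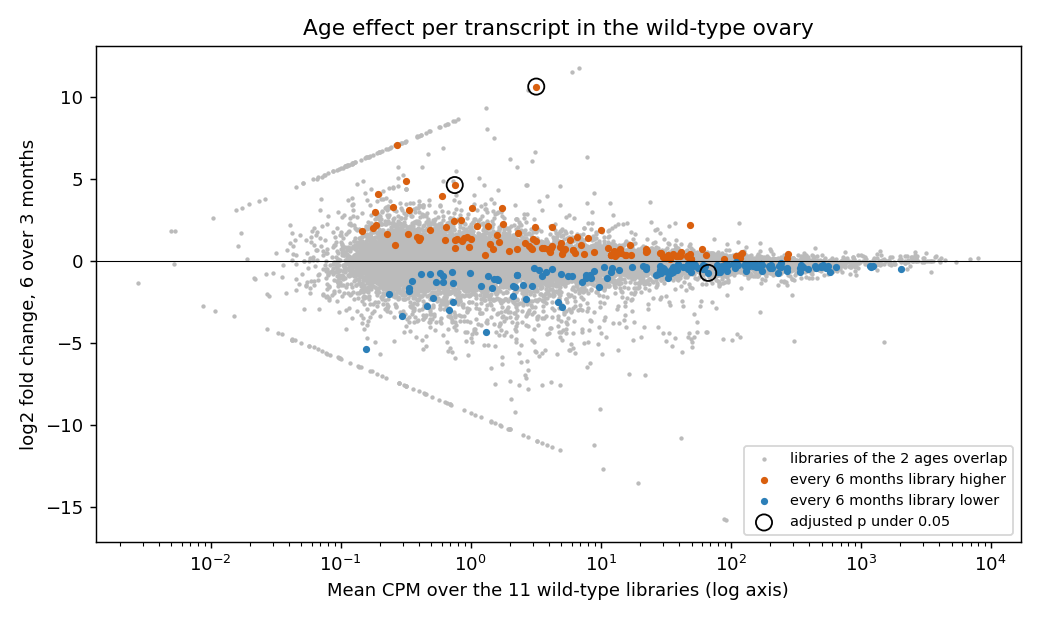
Log2 fold change of 6 over 3 months against mean CPM over the 11 WT libraries (log axis) for each of 30849 transcripts. The 120 and 166 transcripts without overlap between the ages lie close to 0 where abundance is high, the 3 that passed the test are circled, and the straight edges at the left are transcripts with a count of 0 at 1 age, whose fitted fold depends on a prior count.

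Large fold changes were mostly uneven within an age. Of 30849 transcripts tested, 195 were at least 8-fold higher and 363 at least 8-fold lower at 6 months. Of these, 10 and 3 had no overlap between the ages. Over all tested transcripts, 0.389% were higher and 0.538% lower without overlap. For 296 of the 363 (81.5%), 1 library of 3 months held over 50% of the summed CPM of that age. This was library 2 for 118, library 10 for 81, library 6 for 53, library 12 for 33 and library 13 for 11. In 133 of the 363, libraries 2 and 6 alone lay above all older libraries, and in 50 others libraries 10, 12 and 13 alone did. For 112 of the 195 higher transcripts (57.4%), 1 library of 6 months held over 50% of the summed CPM. Libraries 2 and 7 did so for 33 each, library 1 for 19 and the others for 12 or fewer.

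With all libraries in, the spread among libraries was larger at 3 months than at 6 months. The median SD of log2 CPM among libraries was 0.655 at 3 months and 0.521 at 6 months, and 63.3% of transcripts had the higher SD at 3 months. In the class of 100 CPM or more the medians were 0.29 and 0.164, and 76.0% had the higher SD at 3 months. An SD over 2 was reached by 3493 transcripts at 3 months and 2212 at 6 months. Without libraries 2 and 6 of 3 months the median SD of that age dropped to 0.312, from the 3 libraries left, and 28.8% of transcripts then had the higher SD at 3 months. The 6 months group kept all its libraries in that comparison.

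The older libraries were more alike than the younger ones, and this rested on libraries 2 and 6 of 3 months. The correlation across the tested transcripts of log2 CPM between 2 libraries was 0.765 to 0.939 at 3 months (10 pairs, median 0.798) and 0.857 to 0.938 at 6 months (15 pairs, median 0.891). A library's median correlation with the others of its age was 0.782, 0.798, 0.857, 0.859 and 0.846 in libraries 2, 6, 10, 12 and 13 of 3 months. It was 0.885, 0.876, 0.894, 0.899, 0.905 and 0.894 in libraries 1, 2, 6, 7, 8 and 9 of 6 months. All older libraries lay above all younger ones, a difference in means of 0.0638 (exact two-sided permutation test over the 11 libraries, p = 0.00433, the smallest this design gives; 0.0346 adjusted over 8 library values). Correlations that share a library are not independent. Each value was computed within the actual ages and was not recomputed for each grouping. The values of libraries 10, 12 and 13 also include their correlations with libraries 2 and 6. The permutation p-values of this comparison therefore do not measure a difference in spread. Without library 2 of 3 months the difference was 0.00603 and without library 6 it was 0.00936 (exact permutation p = 0.8 for each). Without both, the difference turned to -0.0328 (exact permutation p = 0.0238, the smallest that the libraries left can give). Only the 3 months group lost libraries there. The 6 months group kept libraries 1 and 2, which correlated at 0.857 to 0.891 with libraries 6, 7, 8 and 9. Among themselves, libraries 6, 7, 8 and 9 correlated at 0.894 to 0.938.

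The 3 months group held 2 unlike sets of libraries, each compact. Libraries 2 and 6 correlated at 0.938 with each other, and libraries 10, 12 and 13 at 0.914 to 0.939 among themselves, but across the sets the range was 0.765 to 0.801. Libraries 10, 12 and 13 were closer to every older library, at 0.844 to 0.924, than to libraries 2 and 6 of their own age. Libraries 2 and 6 were closest among the older libraries to libraries 1 and 2, at 0.861 to 0.874, and correlated at 0.798 to 0.831 with the other 4. In terms of the counts themselves, 23.8% to 26.5% of the counts would have to be moved to other transcripts to turn a library of one set into one of the other. Within the sets this was 6.34% to 9.29%. Between libraries of different ages it was 9.54% to 24.9% (30 pairs, median 13.8%), and within 6 months it was 6.23% to 12.6% (15 pairs, median 10.6%).

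**Figure D4:**
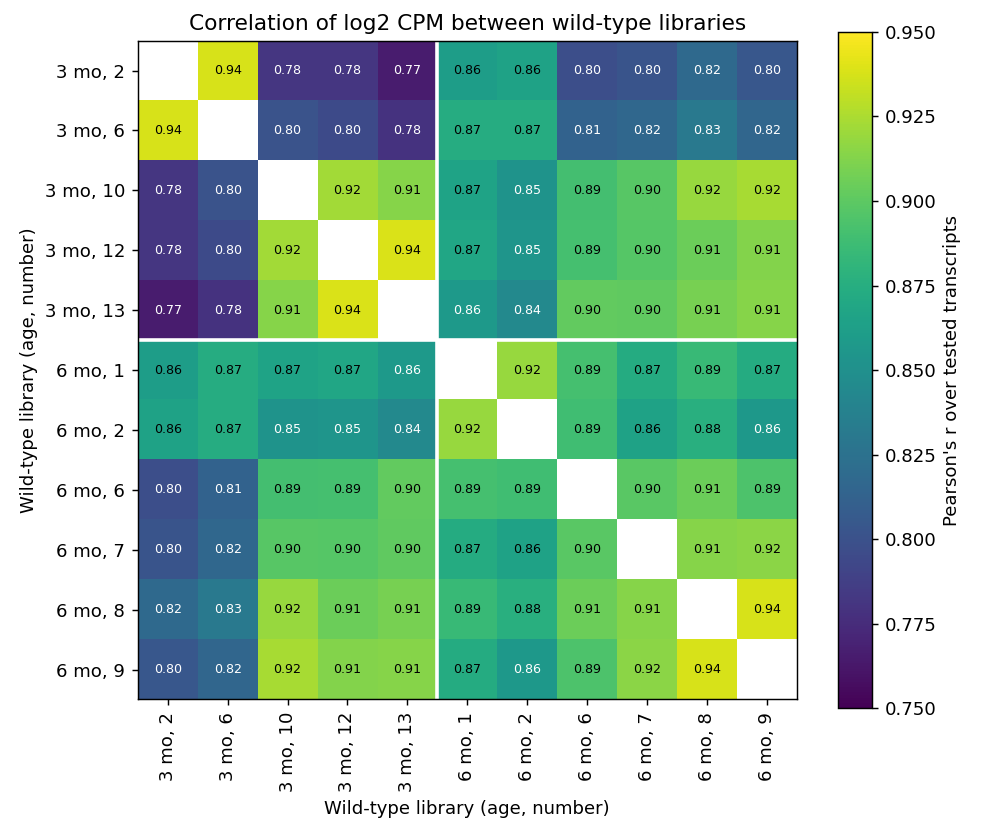
Pearson's r of log2 CPM over 30849 transcripts for each pair of the 11 WT libraries, with white lines between the ages. Libraries 2 and 6 of 3 months form a block of their own, and their lowest values, from 0.765, are with libraries 10, 12 and 13 of the same age.

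Age was not the main axis among the WT libraries. The first principal component of the 11 libraries held 39.1% of the variance and placed libraries 2 and 6 of 3 months at -238 and -221, libraries 1 and 2 of 6 months at -59.1 and -72.4, and the other 7 at 52.9 to 127. Its difference between the ages did not pass (exact permutation test, p = 0.545, adjusted 0.623). The second (12.6%) placed libraries 1, 2 and 6 of 6 months at 107, 130 and 96.2 and all others below 0 (exact permutation p = 0.0736, adjusted 0.165). The third (9.05%) went furthest with age. Its scores were -110 to -9.66 at 3 months and -14.4 to 105 at 6 months, and only library 6 of 3 months lay above an older library, library 1 (exact permutation p = 0.00866, adjusted 0.0346). Leaving out the score of any 1 library gave exact permutation p-values of 0.00794 to 0.019 for the third component. The components were not recomputed without that library, so these values do not show how far the axis itself rests on 1 library. The difference between the ages made up 10.9% of the total variation of log2 CPM, where 11 libraries with no age effect would give 10.0% on average. Without libraries 2 and 6 of 3 months it made up 19.5%, where 12.5% would be given. That 12.5% holds only for libraries left out without regard to their values. Libraries 2 and 6 were left out because they stood apart within their age, so this comparison cannot measure an age effect.

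**Figure D5:**
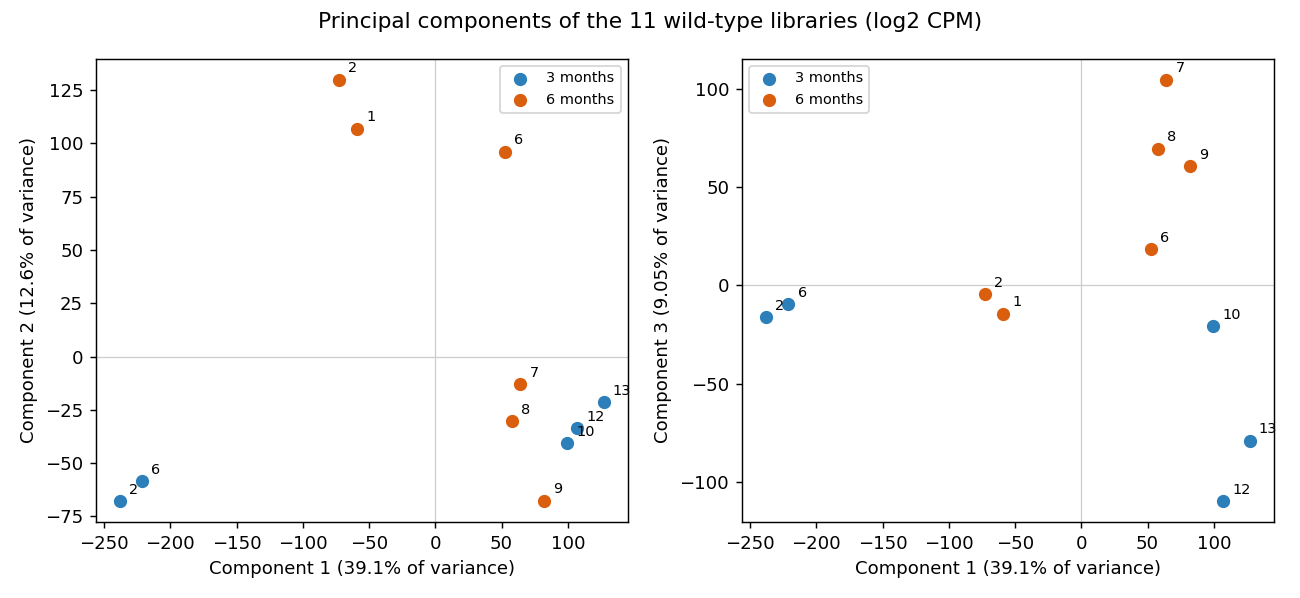
Scores of the 11 WT libraries on component 1 against component 2 (left) and component 3 (right), with library numbers. Component 1 sets libraries 2 and 6 of 3 months apart at -238 and -221, and the ages part best on component 3, where the older libraries lie between -14.4 and 105.

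Leaving out libraries 2 and 6 of 3 months brought 58 transcripts past the test (0.177% of those tested), 41 higher and 17 lower at 6 months. They included both transcripts that rose with all libraries in, and not the one that fell. The 41 had a median log2 fold change of 3.37 without these libraries and 0.86 with them, and in only 4 of them did libraries 2 and 6 also lie below all older libraries. The 17 had medians of -1.11 and -0.773, and libraries 2 and 6 lay above all older libraries in 1. In the rest, at least 1 of libraries 2 and 6 did not lie beyond all older libraries in the direction of the call.

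The data bound most changes of abundant transcripts and few of rare ones. The median SE of the log2 fold change was 0.75 under 1 CPM, 0.418 at 1 to 10 CPM, 0.174 at 10 to 100 CPM and 0.135 at 100 CPM or more. The 95% interval, not adjusted for the number of transcripts, lay within 2-fold in both directions for 6.15%, 33.5%, 81.2% and 89.9% of the transcripts of these classes, and for 13164 transcripts in all. For 239 transcripts the interval lay wholly beyond 2-fold. For rare transcripts, changes of more than 2-fold were often not detectable at this number of libraries.

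In GRKO, measured in other libraries but fitted with the same estimate of spread, 5 transcripts passed between the ages, against 3 in WT. At an unadjusted p under 0.05, 1915 were higher and 1264 lower at 6 months in GRKO, while in WT 1271 were higher and 2206 lower with all libraries in, and 2245 and 2033 without libraries 2 and 6 of 3 months. Among transcripts of 100 CPM or more the direction was alike, with 229 lower and 52 higher in GRKO. Of the 354 abundant transcripts lower in WT at an unadjusted p under 0.05, 119 (33.6%) were so in GRKO too, where all transcripts of that class gave 12.4%. Of the 56 without overlap in WT, 30 (53.6%) were lower in GRKO at that level, and their summed share was 2.21% ± 0.13 at 3 months and 1.88% ± 0.14 at 6 months there (SD, n = 6 each). Of the 166 transcripts lower in every older WT library, 10 (6.02%) were also lower in every older GRKO library, where 0.613% of all tested transcripts were. Of the 120 higher ones, 2 (1.67%) were also higher in every older GRKO library, where 0.473% of all were. None of the 286 went the opposite way without overlap in GRKO. At the shares over all tested transcripts few would do so in any case, so their absence adds little. The shares over all tested transcripts were not matched for abundance, with which the share without overlap rose in WT. Across all 30849 transcripts the fold changes with age of the 2 genotypes correlated at r = -0.00907 with Spearman's rho of 0.291, as a description over transcripts that are not independent. The test of the interaction passed for 2 transcripts, none of them among the 3 that passed for age in WT. For ENSDART00000172366.2 that test could not decide. The transcript was at 0 in every GRKO library, and the SE of its interaction was 7867.18.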

How the data were processed

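Libraries were made from ovary RNA after poly(dT) capture, per the labels' protocols. The authors deposited 1 estimated count per transcript and library, per the file headers. The submitters' processing notes name kallisto 0.48.0, which assigns reads to transcripts without full alignment and splits those that fit several, and build GRCz11; the sources used here name no annotation release, strand setting or read filter. Of the nonzero WT values, 75.8% were not whole.

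Counts were rounded and tested per transcript with edgeR 4.0.16 (R 4.3.3; quasi-likelihood, robust, TMM factors), all 23 libraries, 1 mean per group, after the default filter (minimum count 10, total 15), which kept 30849 of 57775 transcripts and at least 99.78% of WT counts. P-values were adjusted by Benjamini-Hochberg (threshold 0.05). The SE is the log2 fold change over the square root of F; intervals are 95%. CPM use TMM-scaled library sizes; for correlations and components they were put on the log2 scale after adding a prior count of 2. Abundance classes use the mean CPM over the 11 WT libraries. Library values were compared by exact permutation (462 groupings, scipy 1.17.1). The lower bound for a group at 0 uses 3 counts over the group and covers counting error only.

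Named were the transcripts past the threshold, first those of 1 CPM or more by fold, and then, in a direction with fewer than 2, the one with the smallest p without overlap between the ages. Members, tests and alternatives were chosen with earlier results of these data known; those on components, on transcripts without overlap and on directions at unadjusted p were added after the data were seen. Alternatives were limma 3.58.1 (voom, quality weights), DESeq2 1.42.0, upper-quartile or RLE factors, no robust estimation, 2 other filters, WT libraries only, a library number block, whole counts only and libraries left out. The fit was tested on simulated data. Figures used matplotlib 3.10.9.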

Additional observations from a re-analysis of the deposited data

How the results depend on the processing

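The count of 3 transcripts past the threshold was 409 with DESeq2, 21 with limma, 1 with the WT libraries alone, 58 without libraries 2 and 6 of 3 months and 7 without libraries 1 and 2 of 6 months; leaving out single libraries gave 2 to 26. It was 0 of 4202 with transcripts of whole estimated counts only (573 at an unadjusted p under 0.05), none of the named ones among them. The remaining settings gave 2 or 3. With the library number as a replicate block it was 0 (2270 at an unadjusted p under 0.05), and the adjusted p of the named transcripts was 0.675; the 2 ages share only numbers 2 and 6, whose deviations correlated at 0.359 and -0.151, so these share a number and are not known to be pairs. The difference in correlation between the ages was 0.00603 to 0.104 with single libraries left out, 0.0678 with Spearman, 0.106 at 1 CPM or more and -0.0328 without libraries 2 and 6 of 3 months; apart from those libraries the cause was not tested. The named transcripts kept their direction in every setting that tested them. Transcripts without overlap numbered 2514 (8.15%) without libraries 2 and 6 of 3 months and 1024 (3.32%) without libraries 1 and 2 of 6 months, against 286 (0.927%) with all. Fewer libraries are compared there, so separation without an age effect is more likely. The cause was not tested. The number of detected transcripts did not pass the test in any of 13 alternatives. Depth limits rare transcripts most, and reads shared between transcripts limit single identifiers.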
